A study of Mus musculus with 9 samples.

Results

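The transcripts of the 5 NF-kB subunits (Nfkb1, Nfkb2, Rel, Rela and Relb) and of 5 members of the IkB family (Nfkbia, Nfkbib, Nfkbie, Nfkbiz and Bcl3) were followed through RNA sequencing of 9 libraries. The 10 genes were a named list, matched by Ensembl identifier, and all 10 were among the 56289 gene identifiers of the deposited table. The cells were labelled RAW264.7, given there as a murine macrophage-like line of BALB/c origin, and each group had 3 libraries. The TNF plus WBG group received Wang Bi granules (WBG, a Chinese herbal preparation used for rheumatoid arthritis) and tumour necrosis factor alpha for 24 h, the TNF group received the cytokine alone for 24 h, and the untreated group received neither and has no stated time. A difference in time in culture between treated and untreated cells therefore cannot be told apart from the treatment, and the groups used here include no cells given WBG without TNF. The labels give no doses and do not say whether the 3 libraries of a group came from separate cultures. The spread behind every p-value is that between libraries and may be technical. Levels are FPKM (fragments per kilobase of gene and mega-fragments), which is scaled to length. On that scale levels of different genes are set side by side, but the gene lengths used are not stated. Such comparisons between genes are therefore approximate.

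NF-kB is a family of dimeric transcription factors held inactive in the cytoplasm by IkB proteins. In the canonical pathway, TNF receptor signalling activates the IkB kinase complex, which marks IkB alpha, beta and epsilon for destruction and frees dimers such as p50 with RelA. In the non-canonical pathway the p100 precursor is cut to p52, which works with RelB. Several of these genes, IkB alpha foremost, are themselves known NF-kB targets, which closes a feedback loop. Nfkb1 encodes p105, the precursor of p50, and Nfkb2 encodes p100, the precursor of p52. Rela, Relb and Rel encode the subunits that carry a transactivation domain, RelA (p65), RelB and c-Rel. Nfkbia, Nfkbib and Nfkbie encode the classical inhibitors IkB alpha, beta and epsilon. Nfkbiz (IkB zeta) and Bcl3 encode atypical, nuclear IkB proteins that act on p50 or p52 homodimers at promoters.

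Since many members are known NF-kB targets, their promoters were read for the letters of the kappaB site. RefSeq promoters (build GRCm38.p6, 250 bases before to 50 after each annotated start) were matched by symbol for 7 of the 10 genes, Nfkb2 with 3 annotated starts. Shown are the 250 bases before the start of 4 genes with a consensus match there and of Rela, which has none, with matches to the 10-base kappaB consensus in capitals. Nfkb2 is shown at the most upstream start.
Nfkbia, chr12:55492648-55492897, minus strand: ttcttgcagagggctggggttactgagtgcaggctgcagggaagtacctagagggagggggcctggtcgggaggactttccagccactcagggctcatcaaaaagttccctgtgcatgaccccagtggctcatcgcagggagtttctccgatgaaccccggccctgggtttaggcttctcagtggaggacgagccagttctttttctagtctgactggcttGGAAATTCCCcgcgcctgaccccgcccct
Nfkbie, chr17:45555450-45555699, plus strand: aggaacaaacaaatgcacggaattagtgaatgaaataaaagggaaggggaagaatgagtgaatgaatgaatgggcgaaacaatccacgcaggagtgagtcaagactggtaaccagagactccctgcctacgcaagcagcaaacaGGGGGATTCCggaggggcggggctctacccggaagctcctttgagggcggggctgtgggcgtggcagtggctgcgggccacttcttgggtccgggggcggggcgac
Nfkb2, chr19:46304487-46304736, plus strand: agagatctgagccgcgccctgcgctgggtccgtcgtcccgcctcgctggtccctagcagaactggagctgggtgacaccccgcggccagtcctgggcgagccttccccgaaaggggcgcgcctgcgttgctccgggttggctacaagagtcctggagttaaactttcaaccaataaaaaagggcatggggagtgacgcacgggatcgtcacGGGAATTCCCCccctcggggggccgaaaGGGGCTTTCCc
Rel, chr11:23770970-23771219, minus strand: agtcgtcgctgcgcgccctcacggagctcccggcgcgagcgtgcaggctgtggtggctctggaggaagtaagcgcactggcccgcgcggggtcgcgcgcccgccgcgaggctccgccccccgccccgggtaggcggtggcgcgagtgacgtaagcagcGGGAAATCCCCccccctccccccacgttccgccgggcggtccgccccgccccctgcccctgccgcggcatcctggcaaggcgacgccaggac
Rela, chr19:5637291-5637540, plus strand: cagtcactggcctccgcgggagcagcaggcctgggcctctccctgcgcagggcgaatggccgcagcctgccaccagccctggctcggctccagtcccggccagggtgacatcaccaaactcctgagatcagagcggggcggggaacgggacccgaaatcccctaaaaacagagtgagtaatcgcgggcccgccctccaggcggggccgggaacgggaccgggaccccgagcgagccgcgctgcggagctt

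The consensus was found, on either strand, in 5 of the 7 genes (Nfkbia, Nfkbie, Nfkb2, Rel and Bcl3), where 5.14% of the 27025 genes in the promoter table hold it. By position, counted so that the base before the start is -1, it lay at -29 to -20 in Nfkbia, at -106 to -97 in Nfkbie and at 3 to 12 in Bcl3. In Rel, overlapping matches ran over -92 to -82. The upstream start of Nfkb2 had overlapping matches over -39 to -29 and a separate one at -11 to -2, and both other Nfkb2 starts also had a match. Neither Rela nor Nfkbib held the consensus in this window. The looser core, GGGNNNNNCC on either strand, was in 6 of the 7 genes but also in 53.5% of all genes. Every consensus match is also a core match. These are matches of letters, with no measurement of binding here. The windows share a high content of G and C, from 56.3 to 75.0%, which was not matched in the shares over all genes.

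**Figure D1:**
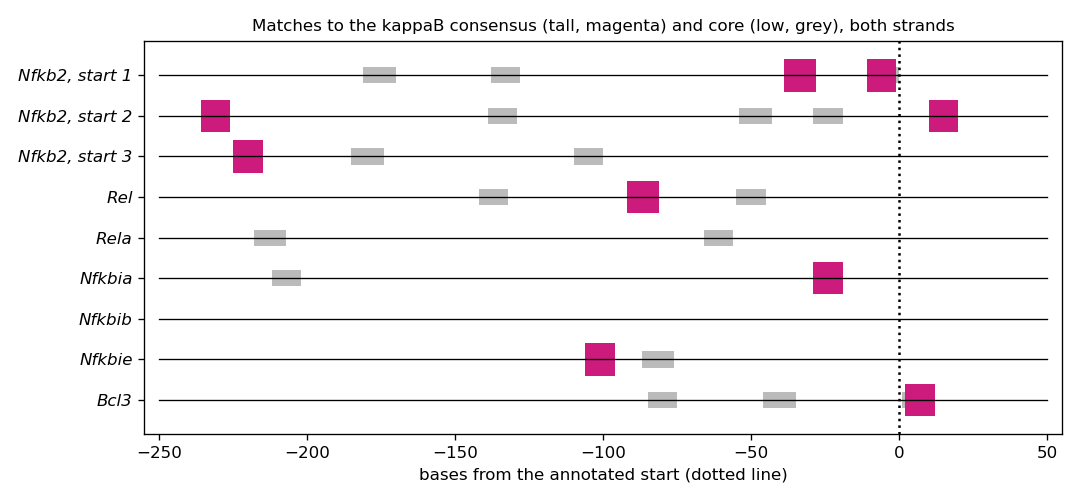
Position of kappaB consensus matches (tall, magenta) and core matches (low, grey) in the promoter windows of 7 genes, in bases from the annotated start (dotted line), with 3 starts for Nfkb2. Consensus matches lie in Nfkb2, Rel, Nfkbia, Nfkbie and Bcl3, core matches without a consensus match in Rela, and neither in Nfkbib.

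The libraries summed to 427781 to 436809 FPKM, and 12611 to 12737 genes reached 1 FPKM in each. The table holds no counts. If the main step in the values of single-exon genes is 1 fragment, the libraries hold 18.9 to 26.1 mega-fragments. Only 24.4 to 26.7% of those values lay within 0.02 of a whole step, where 4% would if spread evenly, so no reads were recovered and no counting interval is given. The macrophage label was not borne out by its markers: of 19 macrophage genes, 5 averaged 1 FPKM or more (Maf, Cd14, Mertk, Cebpa and Cd68). Ptprc (CD45), Itgam (CD11b), Adgre1 (F4/80) and Tyrobp were listed at 0 in all 9 libraries. Of the Itgam exon bases, 68.7% overlap Gm49368 on the same strand, and how shared reads were counted is not stated. Of 15 fibroblast genes, 12 averaged 1 FPKM or more. Lum was listed at 0 in all 9 libraries, and Thy1 and Fap averaged 0.01 and 0.05 FPKM. S100a4 had the highest mean of that list (1164 FPKM), and 51.7% of its exon bases overlap Gm42674 on the same strand. The fibroblast list summed to 4850 to 4990 FPKM with TNF plus WBG, 4910 to 5170 FPKM with TNF and 4610 to 4980 FPKM in untreated libraries. The macrophage list, most of it Maf, summed to 25.5 to 31.5 FPKM with TNF plus WBG, 28.5 to 31.1 FPKM with TNF and 35.5 to 40.8 FPKM untreated. No lymphocyte, epithelial, endothelial, neutrophil or mast cell gene of the lists had a mean of 1 FPKM. The part of these shifts in the results was not tested, and in such bulk samples fewer cells of a type and less RNA per cell cannot be told apart.

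All 10 genes were expressed at more than 1 FPKM in every library, the lowest value being 2.68 FPKM for Rel, so the filter on low values removed none of them. With TNF plus WBG the order of mean levels was Nfkbia, Nfkb1, Rela, Nfkb2, Nfkbie, Relb, Nfkbiz, Nfkbib, Bcl3 and Rel. The ranges over 3 libraries overlapped between the neighbours Rela and Nfkb2, Nfkbie and Relb, and Nfkbiz and Nfkbib. With TNF alone the order was Nfkbia, Nfkb1, Nfkb2, Rela, Nfkbie, Relb, Nfkbib, Bcl3, Nfkbiz and Rel, with overlaps between Nfkb2 and Rela, Nfkbie and Relb, Nfkbib and Bcl3, and Bcl3 and Nfkbiz. In untreated libraries the p50 precursor gene led, followed by Rela, Nfkbia, Nfkb2, Nfkbib, Nfkbiz, Relb, Bcl3, Nfkbie and Rel, and the ranges of Nfkbib and Nfkbiz, of Relb and Bcl3, and of Bcl3 and Nfkbie overlapped. Nfkbie stood in rank 5 of the 10 in both treated groups and in rank 9 in untreated libraries. Rel, the c-Rel gene that is best known from lymphocytes, had the lowest mean in every group.

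**Figure D2:**
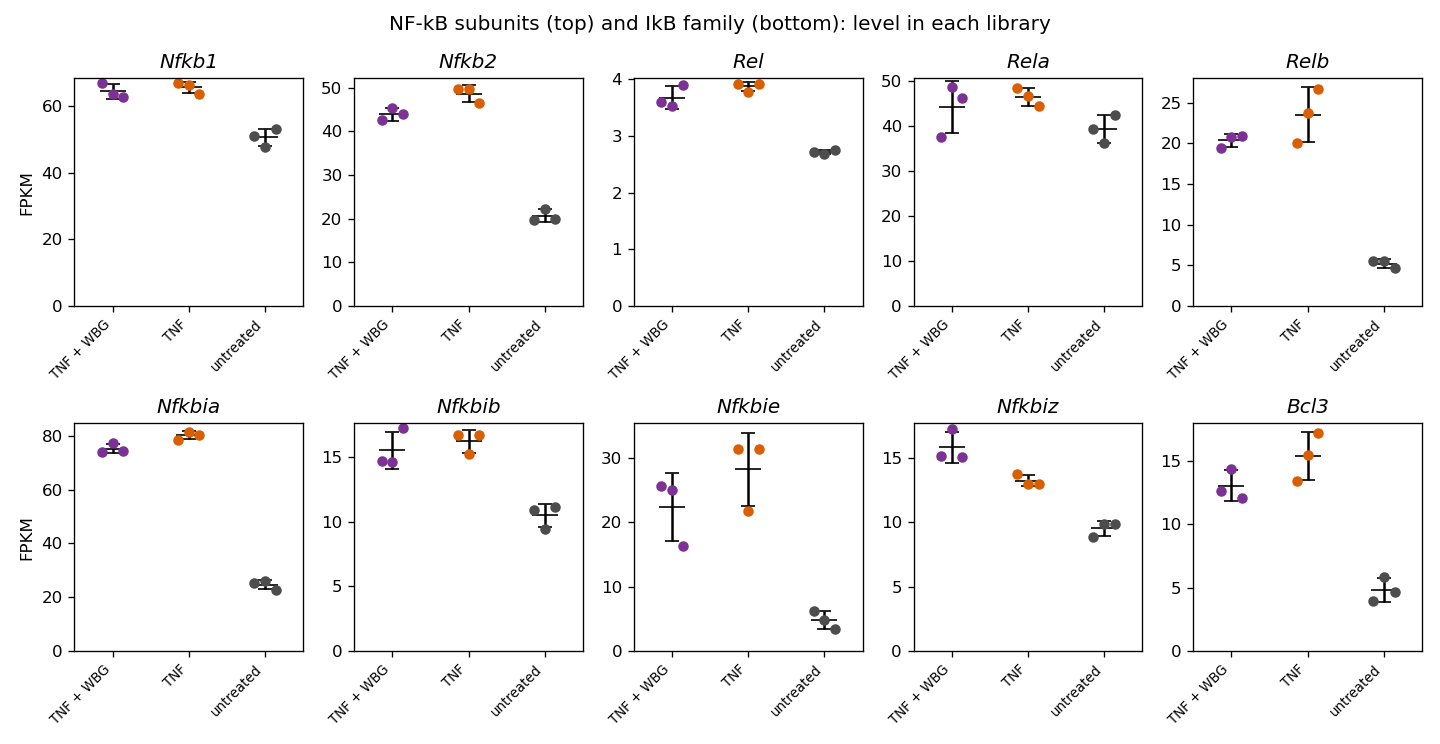
FPKM of each gene in each library (points), with the mean and SD of the 3 libraries (dash and bars), subunits above and IkB family below, in the order TNF plus WBG, TNF and untreated. For 9 genes each treated library lies above each untreated one, and for Rela TNF plus WBG replicate 1 lies at 37.6 FPKM, within the untreated range of 36.2 to 42.5 FPKM.

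The first comparison, TNF against untreated, addresses how the cytokine changed the genes of its own signalling. Of the 10 genes 9 rose and none fell, and Rela did not pass the test (limma on log2 of FPKM plus 1, adjusted p under 0.05 over 13026 genes). Over all genes tested, 6.43% were called higher and 4.21% lower, 10.6% in all. The median log2 fold change of the 10 was 0.89, beside 0.00 over all genes. In all 10 the 3 TNF libraries lay above the 3 untreated ones, which held for 15.5% of all genes.

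Among the subunits, the RelB and p100 genes had the largest log2 fold changes. Relb had 20.0, 23.8 and 26.7 FPKM in TNF libraries, against 5.51, 5.49 and 4.62 FPKM in untreated ones. The TNF libraries were spread over a wider range, yet the lowest of them was far above the untreated level. Its mean was 4.52-fold higher, with a log2 fold change of 1.98 ± 0.10 (SE; limma adjusted p = 5.12e-06). Nfkb2 had 49.7, 49.8 and 46.4 FPKM in TNF libraries, against 19.6, 22.3 and 20.0 FPKM in untreated ones, 2.35-fold higher (log2 1.20 ± 0.06, limma adjusted p = 2.73e-06). Of the exon bases of Nfkb2, 18.1% overlap genes on the opposite strand, Psd and AC114539.1. Psd itself lay at 17.8 to 19.1 FPKM with TNF and 6.99 to 8.79 FPKM untreated, and the counting is not stated to use strand, so shared reads cannot be told apart.

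The other 3 subunits had smaller log2 fold changes. Nfkb1 had 67.1, 66.4 and 63.8 FPKM in TNF libraries, against 51.0, 47.9 and 53.1 FPKM in untreated ones, 1.30-fold higher (log2 0.37 ± 0.05, limma adjusted p = 0.00122). Rel had 3.92, 3.78 and 3.92 FPKM in TNF libraries, against 2.72, 2.68 and 2.75 FPKM in untreated ones, 1.43-fold higher (log2 0.39 ± 0.06, limma adjusted p = 0.00385). In both genes the groups were apart, with narrow spread. Rela had 48.4, 46.7 and 44.5 FPKM in TNF libraries, against 39.4, 36.2 and 42.5 FPKM in untreated ones. These groups also did not overlap, but the log2 fold change of 0.24 ± 0.09, with a 95% interval of 0.02 to 0.45, was not called (limma adjusted p = 0.167, unadjusted p = 0.0344).

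All 5 IkB family genes rose. Nfkbia had 78.7, 81.7 and 80.4 FPKM in TNF libraries, against 25.2, 26.0 and 22.8 FPKM in untreated ones. This made the IkB alpha transcript the highest of the 10 by mean, where Nfkb1 had led in untreated libraries. The rise was 3.25-fold (log2 1.66 ± 0.05, limma adjusted p = 2.93e-07). Nfkbie had 31.5, 21.7 and 31.5 FPKM in TNF libraries, against 6.19, 4.73 and 3.43 FPKM in untreated ones, 5.91-fold higher (log2 2.35 ± 0.23, limma adjusted p = 0.000242). IkB epsilon is the inhibitor known to be resynthesised after IkB alpha in the TNF response of mouse embryonic fibroblasts. Its transcript was also the least even between replicates, with a coefficient of variation of 23.4% with TNF plus WBG, 19.9% with TNF and 28.9% in untreated libraries, the highest of the 10 genes in each group. Nfkbib had 16.7, 15.2 and 16.7 FPKM in TNF libraries, against 10.9, 9.45 and 11.1 FPKM in untreated ones, 1.55-fold higher (log2 0.59 ± 0.08, limma adjusted p = 0.00201). Of the Nfkbib exon bases, 16.4% overlap opposite-strand genes. These include Sirt2, which lay at 24.0 to 47.2 FPKM with TNF and 24.2 to 34.4 FPKM untreated.

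The nuclear IkB proteins differed in the size of their rise. Bcl3 had 13.4, 15.5 and 17.2 FPKM in TNF libraries, against 3.94, 5.82 and 4.68 FPKM in untreated ones, 3.20-fold higher (log2 1.50 ± 0.13, limma adjusted p = 0.00011). Nfkbiz had 13.8, 13.0 and 13.0 FPKM in TNF libraries, against 8.87, 9.87 and 9.88 FPKM in untreated ones, 1.39-fold higher (log2 0.44 ± 0.07, limma adjusted p = 0.00309). Neither gene's libraries overlapped between the groups. The 95% intervals of the log2 fold change ran over 1.21 to 1.80 for Bcl3 and 0.29 to 0.59 for Nfkbiz. Of the Bcl3 exon bases, 6.5% overlap Gm16175 on the opposite strand, which did not exceed 0.57 FPKM in any library.

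**Figure D3:**
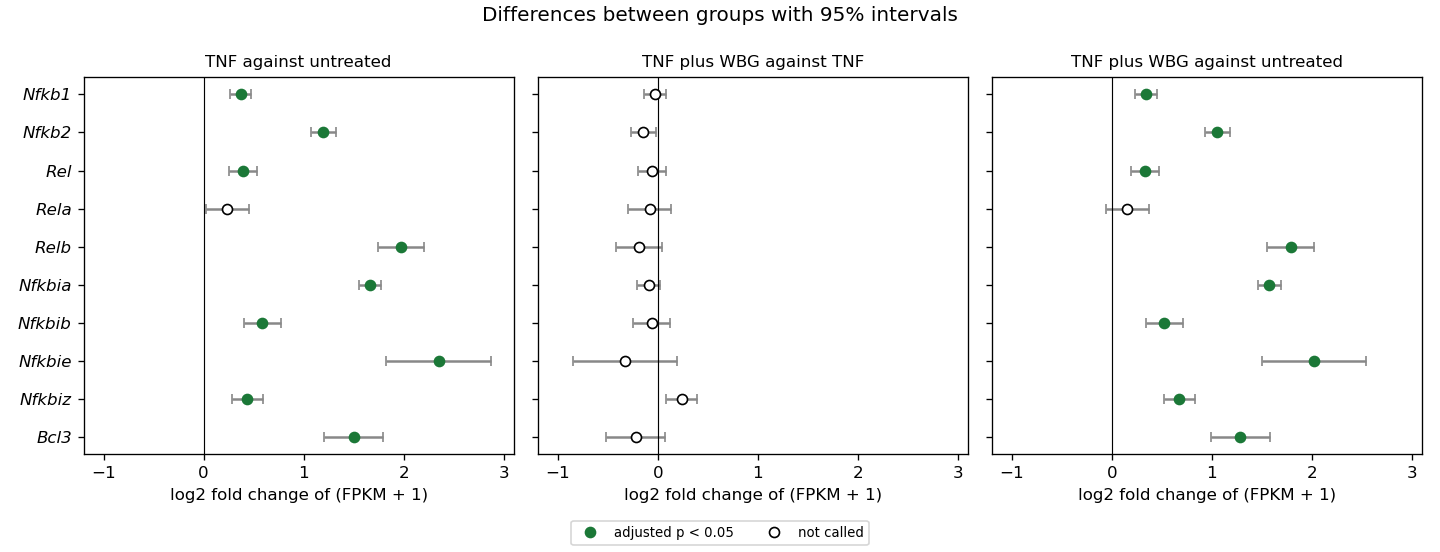
Log2 fold change of FPKM plus 1 for the 10 genes with 95% intervals in the 3 comparisons, filled where the limma adjusted p is under 0.05. Against untreated libraries 9 of 10 genes are called higher in both treated groups, and between TNF plus WBG and TNF none is called, with Nfkbiz on the higher side and the other 9 on the lower.

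The make-up of the family therefore differed between groups. The 5 subunits summed to 185 to 190 FPKM in TNF libraries and 115 to 123 FPKM in untreated ones, and the 5 IkB genes to 147 to 159 FPKM in TNF libraries and 51.9 to 55.9 FPKM in untreated ones. The IkB sum was 0.81 ± 0.04 of the subunit sum in TNF libraries and 0.46 ± 0.03 in untreated ones (SD, n = 3). Of the subunit sum, Nfkb2 and Relb held 25.8% and 12.5% in TNF libraries and 17.4% and 4.40% in untreated ones. Reads shared with Psd could enter the share of Nfkb2 and its ratio to Nfkb1. Rela held 24.7% in TNF libraries and 33.2% in untreated ones, although its level was not lower. Within the IkB sum, Nfkbie held 18.4% in TNF libraries and 8.77% in untreated ones, and Nfkbib held 10.6% and 19.3% in those groups.

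Ratios within a library showed the same in pairs of genes. Relb over Rela was 0.41, 0.51 and 0.60 in TNF libraries, against 0.14, 0.15 and 0.11 in untreated ones. Nfkb2 over Nfkb1 was 0.74, 0.75 and 0.73 in TNF libraries, against 0.39, 0.47 and 0.38 in untreated ones. Nfkbia over Rela was 1.63, 1.75 and 1.81 in TNF libraries, against 0.64, 0.72 and 0.54 in untreated ones, so the inhibitor transcript exceeded that of RelA in TNF libraries and lay below it in untreated ones. Nfkbie over Nfkbia was 0.40, 0.27 and 0.39 in TNF libraries, against 0.25, 0.18 and 0.15 in untreated ones. In each of these 4 ratios the groups did not overlap, and a two-sided exact permutation test gave p = 0.1, the smallest that 3 against 3 libraries allow (0.15 adjusted over 12 such tests). With TNF plus WBG the means were 0.47 for Relb over Rela, 0.68 for Nfkb2 over Nfkb1, 1.73 for Nfkbia over Rela and 0.30 for Nfkbie over Nfkbia. Against TNF alone the exact two-sided p-values were 0.7, 0.1, 1 and 0.5 in that order (adjusted 0.764, 0.15, 1 and 0.6), and only Nfkb2 over Nfkb1 (0.63, 0.71 and 0.70 with TNF plus WBG) did not overlap with TNF alone. Against untreated they were 0.1 (adjusted 0.15) for 3 of the ratios and 0.2 (adjusted 0.267) for Nfkbie over Nfkbia.

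**Figure D4:**
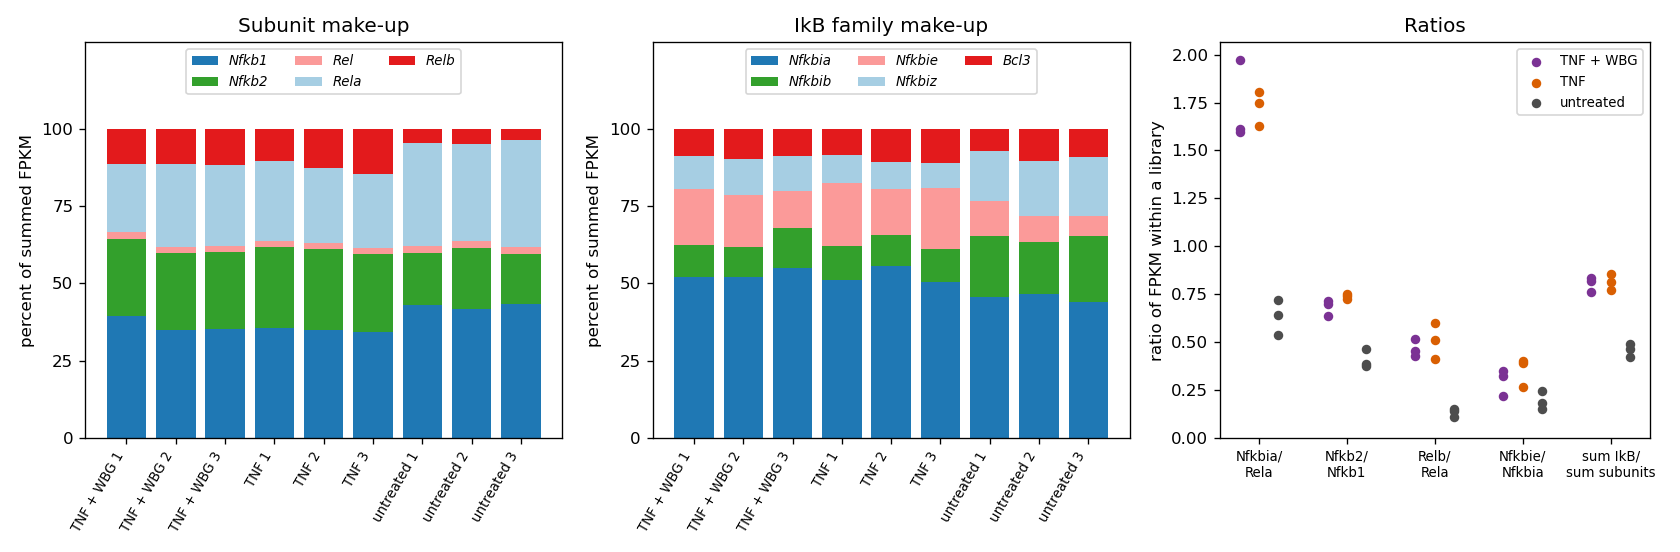
Share of each gene in the summed FPKM of the 5 subunits (left) and of the 5 IkB genes (middle) in each library, and ratios of FPKM within a library (right, 1 point per library, coloured by group). The treated libraries hold larger shares of Nfkb2, Relb and Nfkbie than the untreated ones, and Nfkbia over Rela lies between 1.60 and 1.97 with TNF plus WBG, 1.63 and 1.81 with TNF, and 0.54 and 0.72 untreated.

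The effect of the granules on top of the cytokine was read from TNF plus WBG against TNF. None of the 10 genes passed (limma, adjusted p under 0.05). Over all 13026 genes tested, 0.0691% were called higher and 0.0307% lower, 13 genes (0.0998%) in all. The log2 fold change was below 0 for 9 of the 10 genes, beside 51.1% of all genes, and the median of the 10 was -0.09, beside 0.00 over all genes. An unadjusted p under 0.05 was reached by 2 of the 10, Nfkb2 and Nfkbiz, and by 9.06% of all genes. This comparison and TNF against untreated use the same 3 TNF libraries, so a gene whose TNF libraries happened to read high would move up in one and down in the other.

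Nfkbiz was the 1 gene on the higher side. It had 15.2, 17.3 and 15.1 FPKM with TNF plus WBG, against 13.8, 13.0 and 13.0 FPKM with TNF, and the groups did not overlap. Its mean was 1.19-fold higher (log2 0.24 ± 0.07, 95% interval 0.09 to 0.39, unadjusted p = 0.0061), which was not called (limma adjusted p = 0.417). Of all genes, 7.03% lay higher and 7.72% lower without overlap in this comparison. Nfkb2 had 42.5, 45.4 and 43.9 FPKM with TNF plus WBG, against 49.7, 49.8 and 46.4 FPKM with TNF, also without overlap (log2 -0.14 ± 0.06, unadjusted p = 0.0316, limma adjusted p = 0.508). Nfkbia had 74.1, 77.5 and 74.5 FPKM with TNF plus WBG, against 78.7, 81.7 and 80.4 FPKM with TNF, the last of the genes without overlap (log2 -0.09 ± 0.05, limma adjusted p = 0.649).

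The remaining 7 genes overlapped between TNF plus WBG and TNF. Relb had 19.4, 20.8 and 20.9 FPKM with TNF plus WBG, inside the range of the TNF libraries but for the lowest value. Its log2 fold change of -0.19 had a 95% interval of -0.42 to 0.04 (limma adjusted p = 0.64). Bcl3 had 12.6, 14.4 and 12.1 FPKM with TNF plus WBG (log2 -0.22, 95% interval -0.51 to 0.08, limma adjusted p = 0.67). Nfkbie had 25.7, 25.1 and 16.3 FPKM with TNF plus WBG, and its interval was the widest of the 10, from -0.85 to 0.19 (log2 -0.33, limma adjusted p = 0.722). Rela had 37.6, 48.6 and 46.3 FPKM with TNF plus WBG (log2 -0.08, 95% interval -0.30 to 0.13), and without TNF plus WBG replicate 1 the estimate turned to 0.03 (limma adjusted p = 0.957). The TNF plus WBG libraries had 67.0, 63.7 and 62.8 FPKM for Nfkb1, 3.60, 3.52 and 3.90 FPKM for Rel, and 14.7, 14.6 and 17.2 FPKM for Nfkbib. The log2 fold changes were -0.03 for Nfkb1 (95% interval -0.13 to 0.08), -0.06 for Rel (-0.20 to 0.08) and -0.06 for Nfkbib (-0.25 to 0.12).

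TNF plus WBG against untreated gave 9 of 10 genes higher and none lower, beside 5.52% and 3.67% of all genes (9.19% together), and it shares libraries with both other comparisons. The libraries of 9 genes did not overlap, higher, as did 14.5% of all genes. The log2 fold changes beside those of TNF against untreated were 1.79 and 1.98 for Relb, 1.05 and 1.20 for Nfkb2, 0.34 and 0.37 for Nfkb1, and 0.33 and 0.39 for Rel. For the IkB genes they were 1.57 and 1.66 for Nfkbia, 2.02 and 2.35 for Nfkbie, 0.52 and 0.59 for Nfkbib, 1.28 and 1.50 for Bcl3, and 0.68 and 0.44 for Nfkbiz. Rela was again not called (log2 0.16, 95% interval -0.06 to 0.37, limma adjusted p = 0.385).

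The genes around the family are given by list, and for TNF against untreated the counts stand beside the 6.43% of all genes called higher and 4.21% called lower. Of the 6 IkB kinase and NF-kB-inducing kinase genes 1 rose and none fell. Ikbke, the gene of the inducible kinase IKK epsilon, had 8.53, 9.02 and 8.27 FPKM in TNF libraries, against 5.59, 7.32 and 5.87 FPKM in untreated ones (log2 0.41, limma adjusted p = 0.0259). That call was lost without untreated replicate 1 or 3 or any 1 of the TNF replicates, with no filter, and when the 6 TNF and untreated libraries were fitted alone (limma adjusted p between 0.0501 and 0.0903). Of 13 genes from the TNF receptor to the IkB kinases 3 rose and none fell: the adaptor Traf2 (1.53-fold), the ubiquitin ligase Birc2 (1.33-fold) and Traf5 (1.28-fold). The call of Traf5 was lost without untreated replicate 2 or 3 or TNF replicate 2 (limma adjusted p 0.0524, 0.0502 and 0.0578). Tnfrsf1a, the gene of TNF receptor 1, had 34.7, 56.1 and 56.8 FPKM in TNF libraries, against 36.0, 36.7 and 36.1 FPKM in untreated ones. It was called higher only in the omission of TNF replicate 1 (limma adjusted p = 6.76e-05).

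Of 8 non-canonical pathway genes 3 were tested, and Traf3, which holds the NF-kB-inducing kinase low, rose 1.53-fold (limma adjusted p = 0.00613). Birc3 and Traf1, both common NF-kB targets, stayed at or under 0.30 FPKM in every library. Of 11 deubiquitinase and feedback genes 4 rose and none fell: Tnfaip3 (A20, 3.17-fold), its partner Tnip1 (2.55-fold), the ubiquitin-binding Optn (1.97-fold) and the RNase gene Zc3h12a (1.70-fold). Without untreated replicate 3, Cyld was called as well and Tnip2 was called lower (limma adjusted p = 0.0291 and 0.0102). Of 6 genes for the ubiquitination of IkB proteins and of the p105 precursor, the scaffold gene Cul1 fell (log2 -0.41, limma adjusted p = 0.0326) and 5 did not pass. The call of Cul1 was lost without any 1 of the untreated replicates or TNF replicate 2 or 3, with no filter, and in the fit of 6 libraries (limma adjusted p between 0.0561 and 0.098). Among 13 nuclear cofactors none rose, and the histone deacetylase gene Hdac3 fell (log2 -0.31, limma adjusted p = 0.00509). Of the other IkB-like genes, Nfkbil1 was not called (log2 0.11, limma adjusted p = 0.258) and Nfkbid did not exceed 0.16 FPKM.

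With TNF plus WBG against TNF, 0 genes of these 7 lists were called by limma. An unadjusted p under 0.05 was reached by 2 of the 11 feedback genes, 2 of the 13 receptor-to-kinase genes, 1 of the 13 nuclear cofactors and none in the other 4 lists. Over all genes tested the share was 9.06%. The largest difference in its own list was that of each of Tnfrsf1a (log2 -0.47, limma adjusted p = 0.482), Ikbkg (0.41, 0.772), Tnip2 (0.31, 0.503) and Commd1 (0.25, 0.488). Tnfrsf1a had 35.0, 34.2 and 34.0 FPKM with TNF plus WBG, and without TNF replicate 1 it was called lower (limma adjusted p = 0.000793). In the other lists Btrc (-0.07), Tnfrsf1b (0.04) and Nfkbil1 (-0.01) had the largest changes. With TNF plus WBG against untreated the same rule gave, among others, Ikbke, Traf2, Birc2, Traf3, Tnfaip3, Tnip1 and Zc3h12a as higher, and Cul1 and Hdac3 as lower. Of those named, Ikbke was lost without TNF plus WBG replicate 2 (limma adjusted p = 0.0504), Birc2 without any 1 of the untreated or TNF plus WBG replicates (0.0522 to 0.0927), and Cul1 without any 1 of these or TNF replicate 2 (0.0559 to 0.125). Cul1 was lost too with no filter (0.105) and without trend (0.0529). Traf5 was called as well without TNF plus WBG replicate 1 (0.0305) or with a mean of 5 FPKM required (0.0478), and Cyld without untreated replicate 3 (0.0297).

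Of 38 textbook NF-kB targets outside the family 25 were tested and 20 rose with TNF, while none fell and 5 did not pass. Those 5 were Bcl2l1 (log2 0.36), Myc (0.27), Sod2 (0.06), Plau (-0.04) and Ptgs2 (-0.25, limma adjusted p = 0.143). Ptgs2 had 4.59, 3.98 and 4.13 FPKM in TNF libraries, against 5.04, 4.73 and 5.87 FPKM in untreated ones. Of the 25, 6 (Ccl5, Ccl20, Cxcl10, Mmp9, Cfb and Saa3) were under 1 FPKM in every untreated library and were kept through treated libraries, so the count is only a description. Of the Cfb exon bases, 79.5% overlap Gm20547 on the same strand, so shared reads cannot be told apart. On the scale of log2 of FPKM plus 1, which understates low genes, the largest rises were those of the complement gene C3 (4.10), the chemokine gene Ccl2 (2.85) and Cxcl10 (2.53; 6.60, 7.52 and 5.99 FPKM with TNF, 0.51, 0.37 and 0.13 FPKM untreated). Icam1, Il6, Il1b and Tnf, often used as readouts of NF-kB, were all under 0.1 FPKM in every library. Ccl20 lost its call without any 1 of the untreated replicates or TNF replicate 3, with no filter, and with a pseudocount of 5 (limma adjusted p between 0.0588 and 0.113).

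In TNF plus WBG against TNF, 2 of the 25 targets rose and none fell, beside 0.0691% and 0.0307% of all genes. Saa3 and Ccl20 (0.48, 0.45 and 0.84 FPKM with TNF) passed the filter only through their TNF plus WBG libraries. The counts in this comparison, and the test values of both these genes, are therefore only a description. Saa3, an acute-phase protein gene, had 5.91, 8.42 and 6.73 FPKM with TNF plus WBG, against 0.79, 1.71 and 1.43 FPKM with TNF. Cxcl1, a neutrophil-attracting chemokine gene, had 20.4, 26.6 and 24.7 FPKM with TNF plus WBG, against 11.3, 10.5 and 9.37 FPKM with TNF. Both were called at a limma adjusted p of 0.00514, and Saa3 was not called in a fit of only these 6 libraries (0.0502). The libraries of 4 targets lay higher without overlap (Saa3, Cxcl1, Ccl20 and Ier3), beside 7.03% of all genes, and those of 7 lower, beside 7.72% (Mmp9, Irf1, Vcam1, Cxcl10, Ccl7, Ccl2 and Ccnd1). Of these 11 only Saa3 and Cxcl1 were called. An unadjusted limma p under 0.05 was reached by 11 of the 25 targets, beside 9.06% of all genes. Vcam1, an adhesion molecule gene, had 39.3, 43.0 and 40.0 FPKM with TNF plus WBG, against 45.1, 50.3 and 45.9 FPKM with TNF (log2 -0.20, limma adjusted p = 0.407). Lcn2, the lipocalin 2 gene, was too low to be tested and was chosen after its values were seen. It had 0.47, 0.60 and 0.53 FPKM with TNF plus WBG and was listed at 0 in all TNF and untreated libraries. With TNF plus WBG against untreated 20 of the 25 rose and none fell, beside 5.52% and 3.67% of all genes. The 6 targets under 1 FPKM in every untreated library are among the 25, so this count too is only a description. On the scale of log2 of FPKM plus 1 the largest rises were those of C3 (4.15), Cxcl1 (3.39) and Saa3 (2.99).

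**Figure D5:**
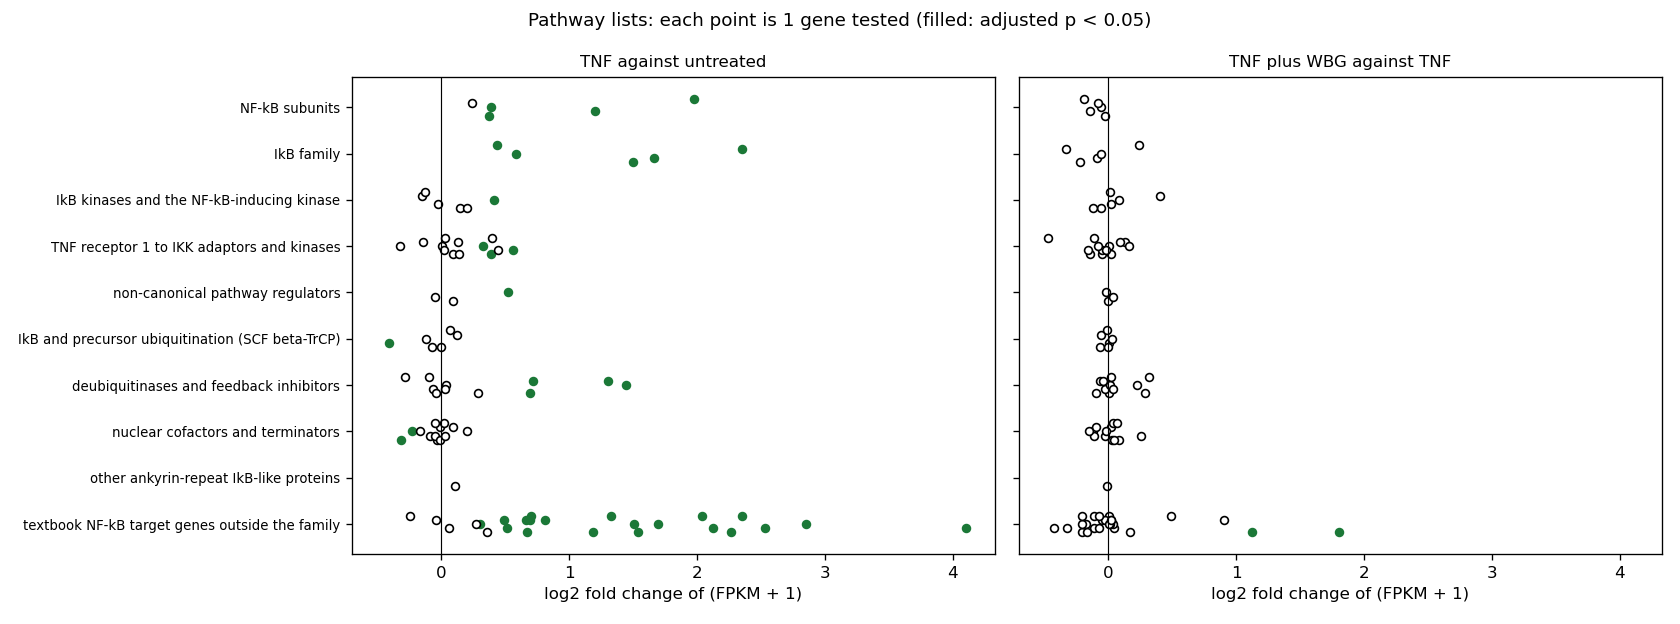
Log2 fold change of FPKM plus 1 of each gene tested in the 10 lists, with TNF against untreated on the left and TNF plus WBG against TNF on the right, filled where the limma adjusted p is under 0.05. The subunits, the IkB family, the feedback inhibitors and the targets hold the large rises on the left, and Saa3 and Cxcl1 are the filled points on the right. Saa3 passed the filter only through its TNF plus WBG libraries.

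Among the genes whose profile over the 9 libraries was most like the mean standardized profile of the 10 members were Ubd (Pearson r = 0.997), Slc39a1 (0.996), Micall2 (0.996) and Ifitm3 (0.996). They were taken from genes with a mean of at least 5 FPKM. Ubd, the gene of a ubiquitin-like modifier, averaged 12.2 ± 1.19 FPKM with TNF plus WBG, 15.7 ± 0.79 FPKM with TNF and 0.84 ± 0.38 FPKM in untreated libraries (SD, n = 3). Slc39a1, a zinc transporter gene, followed the same order over a much smaller range, 47.3 ± 0.87 FPKM, 48.2 ± 0.05 FPKM and 39.8 ± 0.35 FPKM in those groups. The most opposite profiles were those of Acvr2a (-0.994), Tst (-0.993) and Sema4f (-0.993). By single member, H2-Q4 was closest to Nfkbia (0.999), Rgs16 to Nfkb2 (0.998), Arl4c to Relb (0.998), Foxf1 to Rel (0.994), Tapbpl to Bcl3 (0.992), Pak3 to Nfkbie (0.991), Cmtm4 to Nfkb1 (0.990), Hdhd5 to Nfkbiz (0.987), Mvk to Nfkbib (0.983) and Myo10 to Rela (0.953). The 9 libraries fall into treated and untreated clusters, so these values mostly show that step, and they are descriptions. Hdhd5, closest to Nfkbiz, averaged 10.1 ± 0.18 FPKM with TNF plus WBG, 9.47 ± 0.27 FPKM with TNF and 8.58 ± 0.22 FPKM in untreated libraries.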

How the data were processed

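The authors' deposited table gives FPKM per Ensembl gene for 9 poly-A, paired-end libraries, per the labels' protocols made with a TruSeq RNA kit. No label or header names the aligner, the quantifier, its gene models or the build. Of 56289 identifiers, 55144 matched a symbol, and exon overlaps are from GENCODE M21. Genes with at least 1 FPKM in at least 3 of 9 libraries (13026) were kept. A pseudocount of 1 was added before taking log2, and the values were fitted in 1 limma model of all libraries with group as the term (limma 3.58.1 with trend, R 4.3.3, python 3.11.15). Tests were two-sided with Benjamini-Hochberg adjustment over all genes kept, and log2 fold changes understate changes of low genes. Fold values are ratios of mean FPKM. The code was checked on simulated data. Members and lists were chosen with earlier results of these data known. All members are named, and from each list up to 3 called genes per direction, or the gene with the largest change. Other genes were chosen after their values were seen. Some genes that this rule names are not reported here. A planned search of protein sequences was not run. Alternatives varied the pseudocount, filter, scaling, spread model, replicate block and libraries.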

Additional observations from a re-analysis of the deposited data

How the results depend on the processing

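Under 19 alternatives in each of 3 comparisons (18 for Rel, whose mean lies under the stricter filter of 5 FPKM), no call of the 10 genes was gained or lost. The alternatives were pseudocounts of 0.1 and 5, no filter and a stricter filter, 2 scalings, limma without trend, robust moderation, a fit restricted to both groups of a comparison, a replicate block and the omission of each library. The count of genes higher stayed 9 against untreated under every alternative but the stricter filter, where Rel was not tested and it was 8. Between TNF plus WBG and TNF it stayed 0. With TNF the log2 fold change ran from 1.52 to 1.70 for Nfkbia, 1.48 to 2.15 for Relb, 1.76 to 2.56 for Nfkbie, 1.06 to 1.25 for Nfkb2 and 1.05 to 1.67 for Bcl3. The adjusted p of Rela ran from 0.0591 to 0.362. For Nfkbiz between TNF plus WBG and TNF it ran from 0.367 to 0.667. The 1 change of sign was that of Rela in that comparison: with 1 library left out at a time its log2 fold change ran from -0.153 to 0.0273, the last without TNF plus WBG replicate 1, and the cause was not tested.

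Replicates with the same number did not deviate together (r of -0.07 to 0.11 over 9 pairs, and -0.10 to 0.10 over 18 pairs with other numbers), and in 2 of 18 cases a library correlated best with its own number. With the replicate block 9 of the 10 genes were again called against untreated, and over all genes the calls were 1159 in place of 1386 for TNF against untreated, 8 in place of 13 for TNF plus WBG against TNF, and 1046 in place of 1197 for TNF plus WBG against untreated. The calls over all genes fell to 919 for TNF against untreated without TNF replicate 3, and lay between 7 (a fit of its 6 libraries) and 15 for TNF plus WBG against TNF, and between 821 and 1206 for TNF plus WBG against untreated. With a mean of 5 FPKM over all libraries required, a filter that treated libraries also help to pass, 17 of the 25 targets were tested and 13 were higher against untreated, in place of 20, in both treated groups. Between TNF plus WBG and TNF, intervals on the log2 scale reached -0.85 for Nfkbie and -0.13 for Nfkb1, and depth per library is known only by inference.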
